A study of Homo sapiens with 3 samples.

Results

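The genes described here are 9 that encode ubiquitin ligases and ubiquitin-conjugating enzymes (E2s) of the endoplasmic reticulum (ER) other than the ligase HRD1. They were chosen by name, as enzymes that could stand in for HRD1: the ligase genes RNF5, RNF185, RNF139, RNF145, TRIM13 and RNF103, and the E2 genes UBE2G2, UBE2J2 and UBE2K. All 9 were found among the 58243 genes of each table, and all 9 had a mean of at least 50 reads in every comparison.

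The RNA came from cells labelled as LoVo, a human colorectal carcinoma line. They carried a Tet-On construct, in which doxycycline switches on a short hairpin RNA that targets HRD1, the product of SYVN1. The 3 groups, all with the construct, were cells given doxycycline for 0 days, 3 days or 5 days, at 1 µg/ml in the treatment protocol. The study asked how ER stress brought on by loss of HRD1 alters gene expression. Each time had 1 library, and no group without the hairpin or with a hairpin of another sequence was analysed here, so knockdown, doxycycline and time in culture cannot be told apart.

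With 1 library per time there is no replicate error, no p-value was computed, and each ratio compares libraries. Square brackets give 95% exact intervals, which cover counting error only. The libraries held 21308785 to 25754188 reads assigned to genes, of which 87.6% to 89.2% were uniquely placed. Of 10 colon epithelial markers, only the keratins KRT8, KRT18 and KRT19 passed 1 TPM, the authors' read level per exon length scaled to the library. EPCAM had 14 to 19 reads, CDH1 2 to 10, and CDX1 and CDX2 0, while VIM, a mesenchymal marker, stood at 3588 to 4130 TPM. Of 7 mesenchymal markers, 5 passed 1 TPM in each library, but CDH2 had only 5 to 21 reads and COL1A2 0 to 10. The levels of EPCAM, CDH1, CDX1 and CDX2 go against the labelled colon epithelial type. The summed level of 9 liver genes (a list of 10 without SERPINA1, which was high in each library) was 0.197, 0.800 and 34.6 TPM at day 0, day 3 and day 5, and that of 4 blood genes was 0.0242, 1.72 and 11.6 TPM. The part of this liver and blood RNA in the day 5 ratios was not tested.

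Proteins that fail to fold in the ER are moved back to the cytosol, tagged with ubiquitin and destroyed by the proteasome, a route called ER-associated degradation. A ligase in the ER membrane picks the protein, an E2 supplies the ubiquitin, and different ligases serve different clients. HRD1 handles many soluble and membrane proteins of the ER, and the other membrane ligases take membrane proteins, sterol enzymes and immune proteins. ER stress raises the transcription of several genes of this route through the factors ATF6, XBP1 and ATF4.

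SYVN1 itself had 1212 reads at day 0, 650 at day 3 and 709 at day 5, or 43.0, 21.4 and 20.3 TPM. The level was thus lower in both libraries from treated cells, at 0.543-fold [0.493 to 0.597] at day 3 and 0.482-fold [0.438 to 0.529] at day 5. As these are bulk RNA samples, fewer cells of a kind and less RNA per cell cannot be told apart. Against this, the 9 genes stayed close to their day 0 levels. At day 3, only RNF139 was at least 1.2-fold higher than at day 0 with an interval that excluded 1. At day 5 only RNF103 was. None of the 9 was 1.2-fold lower at either time, and none was 1.5-fold different in either direction, nor between day 3 and day 5. Both sets of ratios share the day 0 library.

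These counts were close to those of genes at large. Of the 12451 genes that averaged 50 or more reads in the day 0 and day 3 libraries, 10.0% were at least 1.2-fold higher at day 3 by the same rule and 10.6% were at least 1.2-fold lower. At day 5 the shares of 12693 genes were 9.50% and 7.82%. At 1.5-fold, 1.25% of genes were higher and 2.41% lower at day 3, and 1.89% and 1.32% at day 5. In the day 5 library over the day 3 library they were 2.38% and 0.989%. Of all genes counted at 1.2-fold at day 3, 48.5% were higher, against 24.7% where library totals replaced TMM (trimmed mean of M values) scaling. The median log2 ratio of the 9 genes was 0.07 at day 3 and 0.03 at day 5, beside 0.01 over all tested genes at both times. With the authors' TPM the day 3 median of the 9 was -0.05, beside -0.08 over all tested genes, so the sign of that median depends on the scaling.

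**Figure D1:**
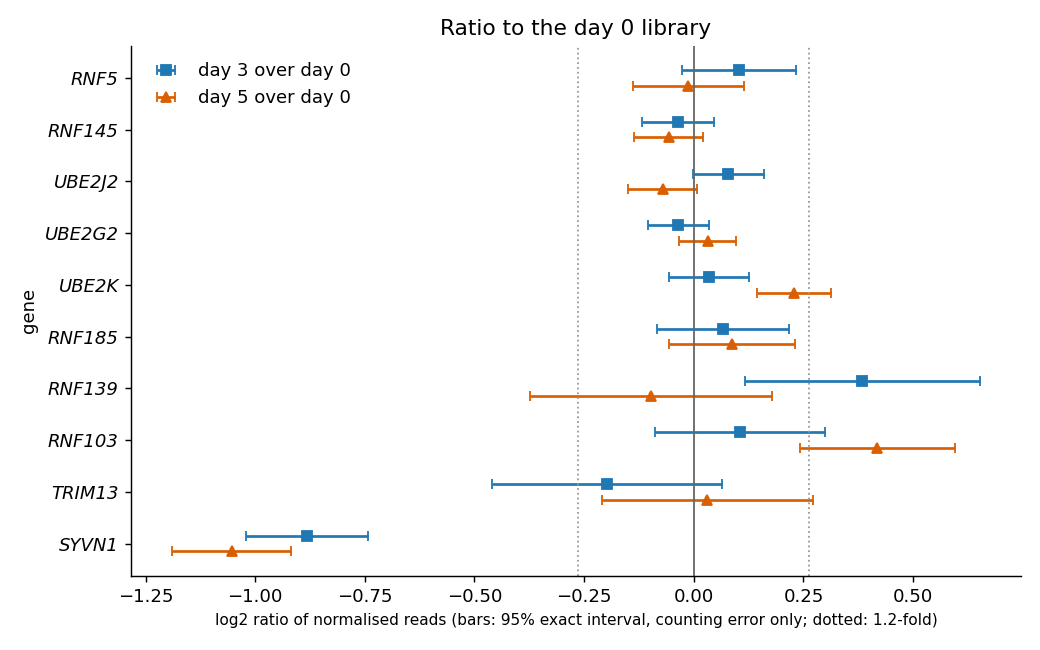
The log2 ratio to the day 0 library (horizontal axis) is drawn for the 9 genes and SYVN1, with squares for day 3, triangles for day 5 and bars for 95% exact intervals that cover counting error only. SYVN1 lies near -0.88 and -1.05, while RNF139 at day 3 (0.38) and RNF103 at day 5 (0.42) are the only values of the 9 genes past the dotted 1.2-fold lines.

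For 5 of the 9 genes (RNF5, RNF185, RNF145, UBE2G2 and UBE2J2) the whole interval lay within 1.2-fold of day 0 at both times. The intervals of TRIM13, RNF139 and RNF103, which had the fewest reads, were wider. The ratios of RNF139 at day 3 and RNF103 at day 5 were also past 1.2-fold in size. UBE2K, with more reads, met the rule at day 3 but not at day 5, when its ratio was larger. This count therefore depends on read number as well as on the size of the ratio. The share of all tested genes that meet it was not computed, so it does not set these genes apart.

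The genes differed far more among themselves than across the libraries. RNF5 was the most abundant per length, at 163, 159 and 159 TPM at day 0, day 3 and day 5. It was followed by RNF145 (93.3 to 104 TPM) and UBE2J2 (92.5 to 97.4), whose ranges over the 3 libraries overlapped. UBE2G2 (80.0 to 91.0) and UBE2K (68.3 to 84.7) came next and also overlapped each other. RNF185 stood at 39.2 to 42.4 TPM. The ranges of RNF139 (14.3 to 18.1) and RNF103 (10.7 to 14.4) overlapped through the day 5 value of RNF103, and TRIM13 was lowest at 4.97 to 6.46 TPM. Across the 3 libraries, the highest level of a gene over its lowest ranged from 1.02 for RNF5 to 1.34 for RNF103.

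**Figure D2:**
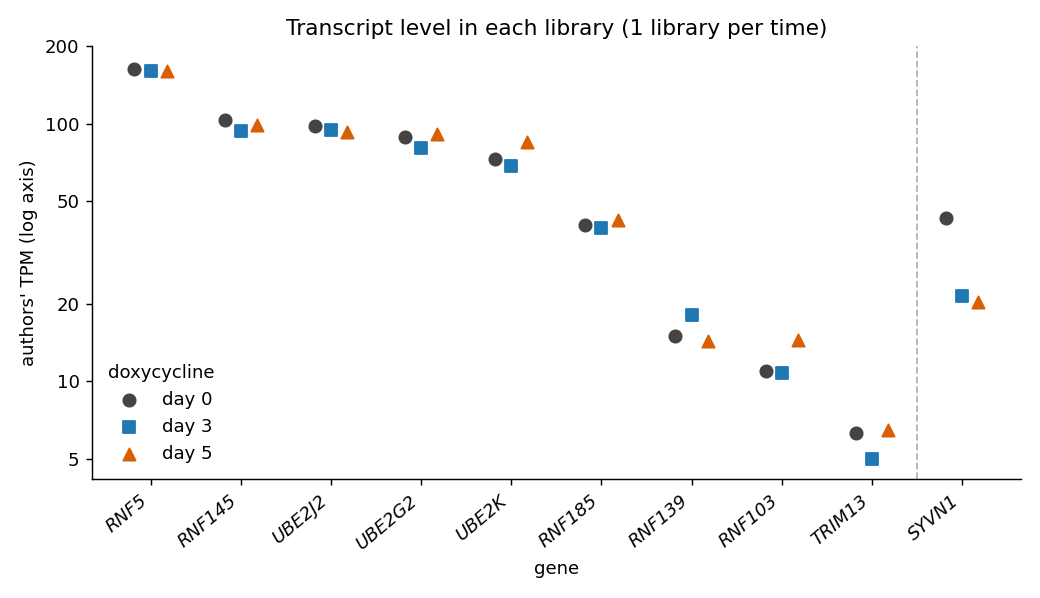
The authors' TPM of each gene (log axis) is drawn for the day 0, day 3 and day 5 libraries, 1 point each. The 9 genes span from 4.97 to 163 TPM and keep nearly the same order at each time, while SYVN1, right of the dashed line, falls from 43.0 to 20.3 TPM.

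SYVN1 moved down in the order of the ligases. Among 26 ER membrane ligase genes, made up of SYVN1, the 6 ligase genes here and 19 others, SYVN1 had rank 8 by TPM at day 0, rank 11 at day 3 and rank 12 at day 5. Its level fell by 21.6 TPM at day 3 and by 22.7 TPM at day 5. The summed level of the 6 ligase genes was 339 TPM at day 0, 326 at day 3 and 336 at day 5. In reads scaled with TMM it was 231, 236 and 235 CPM, so whether the treated libraries stood slightly below or above day 0 depended on the scaling. The 3 E2 genes summed to 259, 243 and 268 TPM.

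RNF5 and RNF185 encode 2 closely related small ligases anchored in the ER membrane, which act on the chloride channel CFTR among other membrane proteins. RNF5 (ENSG00000204308, chromosome 6, positions 32178354 to 32180793, plus strand, GRCh38) had 948, 1006 and 1142 reads over the day 0, day 3 and day 5 libraries. As CPM, reads scaled to library size, these were 43.9, 47.1 and 43.5, with day 3 slightly above the others. The ratio to day 0 was 1.07-fold [0.982 to 1.17] at day 3 and 0.992-fold [0.909 to 1.08] at day 5, both within counting error. Its reads were 99.7% or more uniquely placed, and its copy RNF5P1 had 0 reads in each library. RNF185 (ENSG00000138942, chromosome 22, positions 31160183 to 31207019, plus strand) had 712, 737 and 919 reads, or 33.0, 34.5 and 35.0 CPM. Its ratios of 1.05-fold [0.944 to 1.16] and 1.06-fold [0.962 to 1.17] were also within counting error. CFTR itself had 1, 0 and 0 reads, too few to compare.

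RNF139 (also called TRC8) and RNF145 encode larger ligases with many membrane spans that act, with the INSIG proteins, on enzymes of sterol synthesis. RNF139 (ENSG00000170881, chromosome 8, positions 124474738 to 124487914, plus strand) had 207, 267 and 235 reads, all uniquely placed. Its normalised levels were 9.58, 12.5 and 8.95 CPM, high at day 3 and low at day 0 and day 5. The day 3 library was 1.30-fold above day 0 [1.08 to 1.57], a log2 ratio of 0.38 that 4.36% of all tested genes reached or passed. Day 5 was 0.935-fold of day 0 [0.772 to 1.13] and 0.717-fold of day 3 [0.598 to 0.857]. RNF139 was the only gene of the 9 at least 1.2-fold lower at day 5 than at day 3, beside 10.9% of all 12645 genes tested. The day 3 ratio stayed positive under all 8 processing alternatives, from a log2 ratio of 0.27 with the authors' TPM to 0.39. Few of its reads crossed exon junctions (22, 21 and 30), and for these the day 3 log2 ratio was -0.05 [-0.98 to 0.88]. Its interval at day 3 did not exclude 1.2-fold.

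RNF145 (ENSG00000145860, minus strand of chromosome 5 from 159157409 to 159210053) had more reads than its relative and so narrower intervals. They numbered 2440, 2353 and 2850 reads, or 113, 110 and 109 CPM, nearly level across the libraries. The ratios were 0.976-fold [0.922 to 1.03] at day 3 and 0.961-fold [0.911 to 1.02] at day 5. At day 3 the pair thus had log2 ratios of 0.38 and -0.04, with intervals for counting error that did not overlap. In reads across exon junctions the values were -0.05 [-0.98 to 0.88] for RNF139 and -0.09 [-0.21 to 0.02] for RNF145. RNF139 had only 22 such reads at day 0 and 21 at day 3, too few to show whether the pair differed in this class.

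Few of the reads of TRIM13 and RNF103 were uniquely placed. TRIM13, a ligase anchored in the ER membrane that also takes part in ER-linked autophagy, lies on chromosome 13 (ENSG00000204977, positions 49995888 to 50020481, plus strand). It had 261, 225 and 324 reads, or 12.1, 10.5 and 12.3 CPM, with day 3 lowest. The day 3 ratio was 0.872-fold [0.726 to 1.05] and the day 5 ratio 1.02-fold [0.865 to 1.21]. Only 34, 28 and 42 of these reads were uniquely placed. The gene overlaps KCNRG on the same strand, with 5 to 9 reads, and the antisense transcript DLEU2, with 406 to 658 reads, and nothing in the labels says that strand was used in counting. With the authors' TPM the day 3 log2 ratio was -0.32 and with library totals it was -0.26, which took TRIM13 past 1.2-fold lower. Those scalings also moved the median over all tested genes, from 0.01 to -0.08 and -0.06. With smooth trends of the ratio on exon length and GC content removed, TRIM13 was at -0.09.

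RNF103, a multi-pass ligase of the ER membrane also called KF-1, lies on the minus strand of chromosome 2 from 86603393 to 86623866 (ENSG00000239305). Its read numbers were 426, 453 and 692 reads, or 19.7, 21.2 and 26.4 CPM, so the day 5 library stood above both others. Day 5 was 1.34-fold above day 0 [1.18 to 1.51], a log2 ratio of 0.42 that 4.40% of tested genes reached or passed. Day 3 was at 1.08-fold [0.940 to 1.23]. Day 5 over day 3 was 1.24-fold [1.10 to 1.40], and RNF103 was the only gene of the 9 at least 1.2-fold higher in that comparison, beside 12.4% of genes.

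Only 12.1% to 13.7% of RNF103 reads were uniquely placed. They numbered 52, 62 and 84, which gave a day 5 log2 ratio of 0.42 [-0.09 to 0.96], the same size as from all reads but with an interval that includes 0. RNF103 shares its locus with the readthrough gene RNF103-CHMP3, which was listed with 29, 7 and 11 reads, fewer at day 5 than at day 0. Reads across exon junctions of RNF103 numbered 66, 71 and 112, a day 5 log2 ratio of 0.48 [0.03 to 0.94]. Of these, 51, 61 and 84 were uniquely placed, at 0.45 [-0.06 to 0.99], an interval that includes 0. The unique and junction classes thus share most of their reads and are not separate evidence. With smooth trends of the ratio on exon length and GC content removed, the log2 ratios were 0.34 for day 5 over day 0 and 0.15 for day 5 over day 3. The latter was then below 1.2-fold.

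The E2 genes came with more reads. UBE2G2 encodes an E2 that serves HRD1 and other ER ligases and is held at the membrane by AUP1. UBE2G2 (ENSG00000184787, minus strand of chromosome 21 from 44768580 to 44802019) had 3466, 3343 and 4304 reads, all uniquely placed, or 160, 157 and 164 CPM. Its ratios were 0.976-fold [0.930 to 1.02] at day 3 and 1.02-fold [0.977 to 1.07] at day 5. The level of its membrane anchor AUP1 was also near day 0, at log2 ratios of 0.12 and -0.06.

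UBE2J2 encodes an E2 anchored in the ER membrane that can also place ubiquitin on residues other than lysine. UBE2J2 (ENSG00000160087, minus strand of chromosome 1 from 1253909 to 1273885) had 2476, 2585 and 2863 reads, or 115, 121 and 109 CPM. Day 3 was 1.06-fold of day 0 [0.999 to 1.12] and day 5 was 0.952-fold [0.902 to 1.00]. Day 5 over day 3 was 0.901-fold [0.854 to 0.951], a difference beyond counting error. Its transcript has the highest GC content of the 9, 59.3%, and with the length and GC trends removed that log2 ratio moved from -0.15 to 0.03.

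UBE2K encodes a cytosolic E2 that builds ubiquitin chains recognised by the proteasome. UBE2K (ENSG00000078140, chromosome 4, positions 39698044 to 39782792, plus strand) had 1946, 1970 and 2770 reads, or 90.1, 92.2 and 106 CPM, highest at day 5. Day 3 was 1.02-fold of day 0 [0.962 to 1.09]. Day 5 was 1.17-fold [1.11 to 1.24], an interval that excludes 1 but a size under 1.2-fold, and 14.7% of tested genes had a ratio as high. Its transcript has the lowest GC content of the 9, 36.8%, and with the trends removed its day 5 log2 ratio moved from 0.23 to 0.08.

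Placed by both ratios, the 9 genes lay within the body of all tested genes. HSPA5, which encodes the main ER chaperone BiP, and HERPUD1, an ER-associated degradation factor raised by ER stress, lay apart at day 3, when they were 1.65-fold and 1.60-fold higher than at day 0. At day 5 they were at 1.36-fold and 1.35-fold, close to RNF103 at 1.34-fold.

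**Figure D3:**
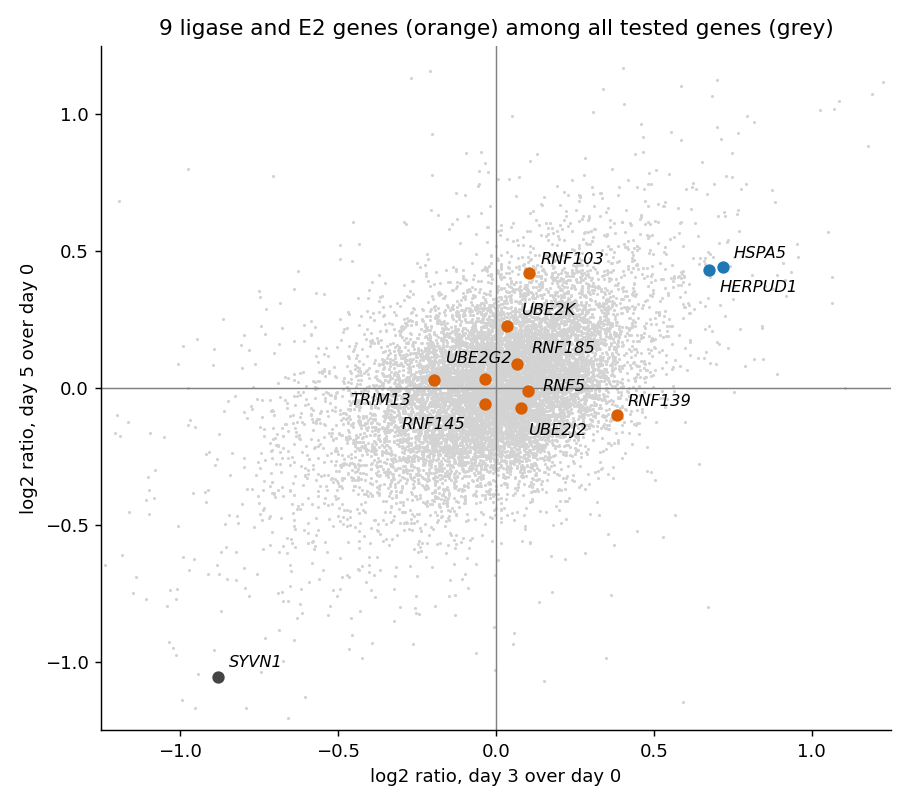
Each gene is placed by its log2 ratio at day 3 (horizontal) and day 5 (vertical) over day 0, with 12410 tested genes in grey, of which 48 fall outside the axes. The 9 genes (orange) lie between -0.20 and 0.42 on both axes. SYVN1 (dark) lies low on both, HSPA5 and HERPUD1 (blue) lie to the right at about the height of RNF103, and all ratios share the day 0 library.

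Promoter windows of 6 of the 9 genes (RNF5, RNF145, RNF103, UBE2G2, UBE2J2 and UBE2K) were in the RefSeq table of build GRCh38.p14. RNF139, RNF185 and TRIM13 were not matched. Each window runs from 250 bases before to 50 after a transcription start, and the 6 genes had 11 windows. The windows were searched on both strands for the ER stress response element (ERSE, CCAAT and CCACG spaced apart), ERSE-II (ATTGG and CCACG with 1 base between), and the letters TGACGTGG (core of the XBP1 and ATF6 element, UPRE) and TGATGNAA (core of the ATF4 element). None of these was found in the 11 windows. The share of all 35116 windows that hold them was 0.0769%, 0.0541%, 0.729% and 3.62% in that order, so absence is the common state. The HSPA5 window held an ERSE starting at position -66 from the start, and the HERPUD1 window held an ERSE-II at -117 and an ATF4 core at -176.

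The stretches below compare the promoters of those stress genes with those of RNF103, which had the highest day 5 ratio of the 9 genes, and RNF5, the most abundant. Capitals mark CCAAT and CCACG, the parts of which the ERSE is made, or their reverse complements ATTGG and CGTGG. Only bases before the start and outside annotated exons are shown, 5′ to 3′.
HSPA5 (chr9:125241344-125241593, minus strand): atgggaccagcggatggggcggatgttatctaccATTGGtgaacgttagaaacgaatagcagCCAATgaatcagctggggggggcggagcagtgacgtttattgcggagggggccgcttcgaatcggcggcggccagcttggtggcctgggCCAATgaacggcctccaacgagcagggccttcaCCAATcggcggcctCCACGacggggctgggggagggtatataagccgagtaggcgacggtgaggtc
HERPUD1 (chr16:56931892-56932047, plus strand): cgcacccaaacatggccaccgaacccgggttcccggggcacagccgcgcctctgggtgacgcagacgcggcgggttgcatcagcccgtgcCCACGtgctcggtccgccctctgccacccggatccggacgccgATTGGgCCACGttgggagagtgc
RNF103 (chr2:86623878-86624127, minus strand): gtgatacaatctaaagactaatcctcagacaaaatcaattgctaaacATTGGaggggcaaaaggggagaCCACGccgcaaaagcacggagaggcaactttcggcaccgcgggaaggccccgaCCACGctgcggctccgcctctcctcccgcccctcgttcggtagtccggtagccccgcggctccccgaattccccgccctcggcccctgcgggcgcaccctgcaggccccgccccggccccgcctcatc
RNF5 (chr6:32178155-32178353, plus strand): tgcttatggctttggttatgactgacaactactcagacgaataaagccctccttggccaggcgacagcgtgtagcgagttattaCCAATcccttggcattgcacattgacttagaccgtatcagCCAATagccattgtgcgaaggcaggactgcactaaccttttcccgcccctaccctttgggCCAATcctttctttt

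RNF103 has CCAAT on the reverse strand at -203 and CCACG at -181 and -128. Its other window, which overlaps the first, holds the same parts at -215, -193 and -140. RNF5 has CCAAT at -166, -126, -66 and -22, the last of which lies in an annotated exon and is not shown. It also has CCACG on the reverse strand at position 18, after the start and so not shown. None of these windows has the spacing of the ERSE. CCAAT and CCACG alone are frequent, in 34.6% and 38.1% of all windows. Searching for these parts was added after the data were seen. A match or its absence describes letters in these windows and says nothing of which factor was bound.

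The wider families gave the background for the 9 genes. Of the 19 other ER membrane ligases, 14 had a mean of at least 50 reads at day 3 and 13 at day 5. RNF122 was 1.2-fold or more higher at day 3, with 38 reads at day 0 and 67 at day 3 (log2 ratio 0.83 [0.24 to 1.45]), and none was that much lower. At day 5, RNF13, a ligase of ER and endosome membranes, was higher at 0.30 [0.15 to 0.45], and RNF121 was lower at -0.29 [-0.46 to -0.11]. With the length and GC trends removed they were at 0.19 and -0.26, both under 1.2-fold. MARCH6, a large ligase with many membrane spans, had log2 ratios of -0.23 [-0.29 to -0.16] at day 3 and -0.00 [-0.06 to 0.06] at day 5, and the day 3 value was -0.06 with the trends removed. RNF26 was at -0.23 [-0.32 to -0.14] at day 5. The median log2 ratio of these ligases was 0.07 at day 3 and -0.03 at day 5.

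Of 31 other E2 genes, 30 were tested at day 3 and 31 at day 5. At day 3, none was 1.2-fold higher and BIRC6, a very large E2 and ligase fusion that inhibits cell death, was lower at -0.45 [-0.53 to -0.38], or -0.23 and under 1.2-fold with the trends removed. At day 5, UBE2L6, the E2 of the ubiquitin-like protein ISG15, was at 0.59 [0.01 to 1.21] from 38 and 70 reads. UBE2W, which tags the amino terminus of proteins, was at 0.42 [0.22 to 0.62], with 14.0% to 20.1% of its reads uniquely placed and 0.19 from those alone. None was 1.2-fold lower. UBE2J1, the E2 that sits with HRD1 in the ER membrane, was at 0.15 [0.05 to 0.26] at day 3. At day 5 it was at 0.26 [0.17 to 0.36], just under 1.2-fold, and at 0.14 with the trends removed. The median of the other E2 genes was 0.09 at day 3 and 0.13 at day 5, and 0.08 and 0.04 with the trends removed.

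**Figure D4:**
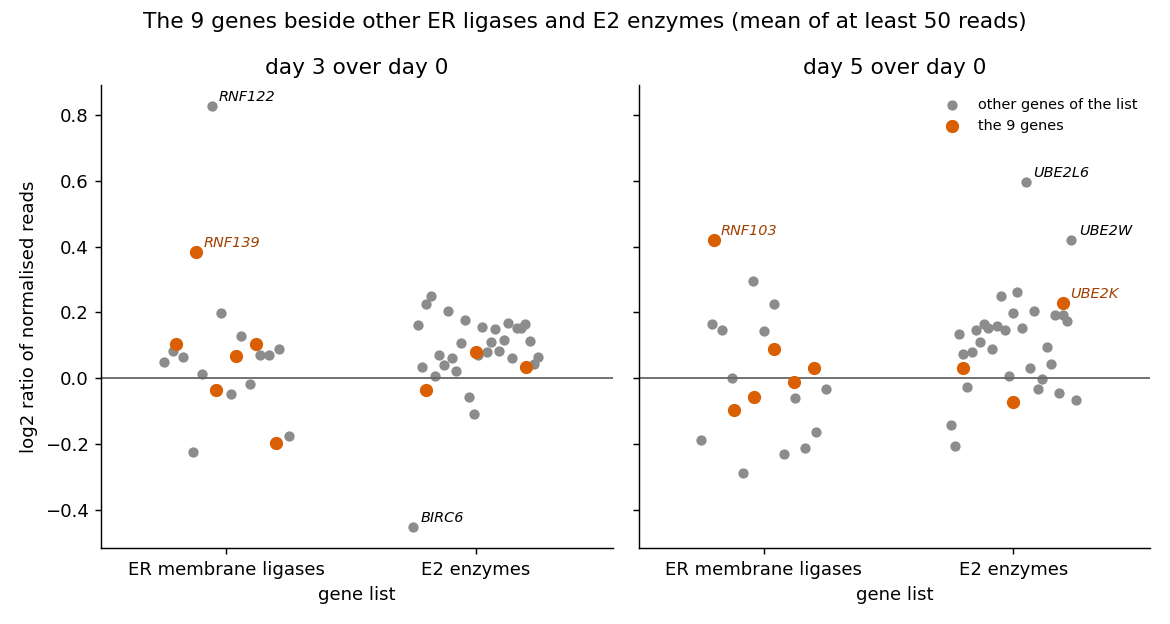
Log2 ratios to day 0 are drawn for ER membrane ligases (left column of each panel) and E2 enzymes (right column) with a mean of at least 50 reads, 1 point per gene, the 9 genes in orange. RNF139 at day 3 and RNF103 at day 5 are the highest of the orange points.

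The pattern of RNF139 over both ratios was nearest to those of UBE2C, UBE2B and UBE2T among 43 other ligase and E2 genes. The distance between log2 ratios was 0.15 for UBE2C, and 359 of 12410 tested genes lay as near. RNF103 was nearest to UBE2W at a distance of 0.06, with 65 tested genes as near, then to RNF13 and UBE2J1. Likeness over 2 ratios from 3 libraries describes these libraries only.

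Most partners and clients of the ligases were also not counted as 1.2-fold different from day 0. At day 3, 0 of 7 partner genes and 0 of 8 tested client genes were counted. At day 5, 1 of 7 partner genes (INSIG2) was counted as higher. Of 8 tested client genes, 2 (SCAP and JKAMP) were counted as lower at day 5. Of all tested genes, 9.50% were higher and 7.82% lower at that time. The client HMOX1 had the highest day 3 ratio and just passed 1.2-fold, but its interval included no difference (log2 ratio 0.26 [-0.00 to 0.53]). The largest partner ratios at day 3 were those of TMUB1 and INSIG1 (0.15 each), and the clients SQSTM1 and JKAMP stood at 0.22 and -0.21. SQSTM1 was at 0.21 [0.18 to 0.25] at day 5. With the trends removed SQSTM1 was at 0.27 at day 3 and 0.36 at day 5, both past 1.2-fold in size. At day 5, INSIG2, which links sterol enzymes to RNF139 and RNF145, went from 352 reads at day 0 and 364 at day 3 to 622, a ratio to day 0 of 1.45-fold [1.27 to 1.66]. INSIG1 followed at a log2 ratio of 0.26 [0.19 to 0.33], under 1.2-fold. TMEM259 (membralin), a partner of RNF185, was at -0.24 [-0.30 to -0.17], and at -0.08 with the trends removed. SCAP, which carries SREBP factors out of the ER, was lower at day 5 at -0.34 [-0.41 to -0.27], but at -0.19 and under 1.2-fold with the trends removed. JKAMP, a client of RNF5, was lower at -0.27 [-0.39 to -0.16], and at -0.41 with the trends removed.

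**Figure D5:**
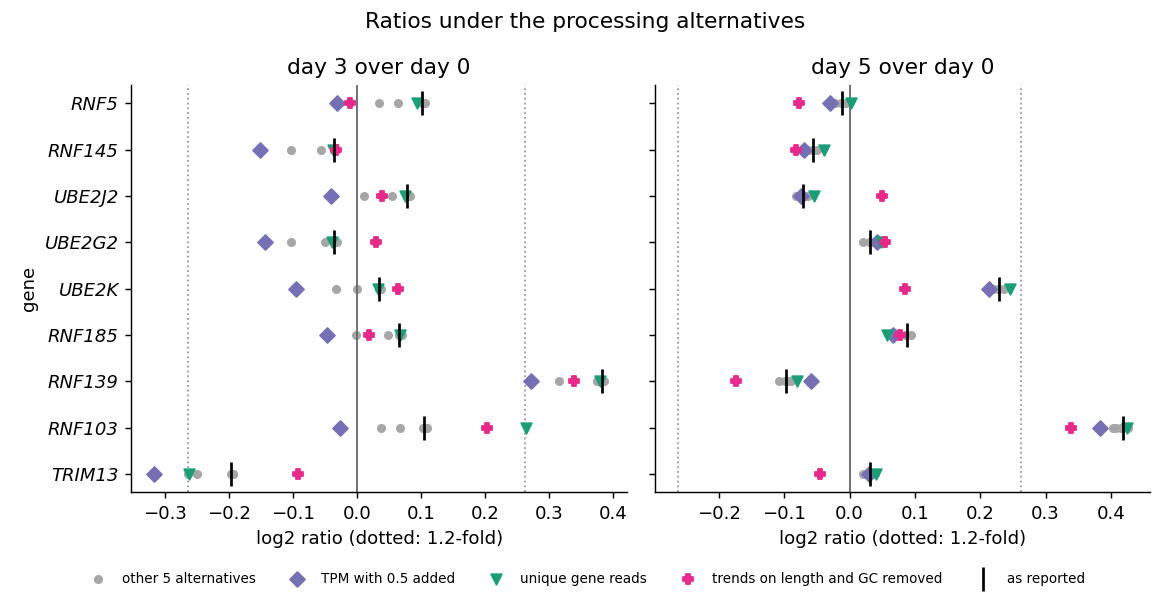
The log2 ratio of each gene to day 0 is drawn as reported (black bar) and under 8 other ways of processing (symbols), at day 3 (left) and day 5 (right), with dotted lines at 1.2-fold. RNF139 at day 3 (0.27 to 0.39) and RNF103 at day 5 (0.34 to 0.43) stay past 1.2-fold in size throughout, and UBE2K at day 5 moves to 0.08 with length and GC trends removed.

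The values are transcript levels, and neither enzyme amount nor ligase activity was measured.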

How the data were processed

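The deposited tables, 1 per library, hold read counts and TPM per gene. Per the file headers, the authors counted unique and total gene reads, exon, exon-exon and intron reads, and their TPM values equal total exon reads over exon length, scaled to a fixed total. Which aligner, counter and strand setting were used is not given in the sources used here. Per the submitters' processing notes the build is mm10, but the gene identifiers are human, and 56577 of the 57980 genes found in GENCODE 29, including all 9 described, have its GRCh38 coordinates. A further table's 3 sample columns were left out.

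Total gene reads were scaled with TMM factors (trimmed mean of M values, 0.968 to 1.02; edgeR 4.0.16, R 4.3.3). For log2 ratios 0.5 was added to counts as a prior. Each interval is the exact (Clopper-Pearson, 95%) one of the ratio given both reads, from scipy 1.17.1. A gene was counted at a ratio of at least 1.2-fold (also 1.5-fold) with an interval excluding 1, if its mean over the 2 libraries was 50 reads or more. A count of 3 reads is 0.114 to 0.140 CPM. Trends on exon length and GC content of the longest GENCODE 29 transcript were removed by lowess (span 0.3, 3 rounds; statsmodels 0.14.6); 99.1% to 99.2% of tested genes had both. The steps were run on simulated counts drawn with counting error only, the error that the interval assumes, so variation between replicate libraries was not covered. Alternatives were library totals, DESeq2 1.42.0 size factors, TPM (0.5 added), exon reads, unique reads, a prior of 5 counts, no minimum or a mean of 200 reads, abundant genes left out, trends removed, and an interval excluding 1.2-fold.

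The genes and lists were chosen with earlier results of these data known. Named genes are the 9, SYVN1, HSPA5 and HERPUD1, up to 4 per list and time with the largest ratios and an interval excluding 1, and the 3 nearest patterns. MARCH6, AUP1, UBE2J1, CFTR and HMOX1 are also given at times when the rule does not name them, chosen after their values were seen. Some listed genes are not reported here.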

Additional observations from a re-analysis of the deposited data

How the results depend on the processing

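Of 216 log2 ratios of the 9 genes recomputed under 8 alternatives, 202 stayed within the reported interval and 14 did not. The sign changed in 16, for example for RNF5 at day 3 (from 0.10 to -0.03 with TPM), and in 0 of those for a ratio counted as 1.2-fold different. The number of genes at least 1.2-fold different moved under some alternatives. At day 3 over day 0, lower genes went from 0 to 1 (TRIM13) with library totals and with TPM, and higher genes from 1 to 0 where the interval had to exclude 1.2-fold. At day 5 over day 0, higher genes went from 1 to 0 with unique reads and with that stricter interval. At day 5 over day 3, higher genes went from 1 to 3 with library totals and with TPM (TRIM13, RNF103 and UBE2K), to 2 with exon reads, and to 0 with unique reads, with trends removed and with the stricter interval, which also took lower genes from 1 to 0. Unique reads of TRIM13 were under the minimum of 50, so 8 genes were tested there. Library totals and TPM also moved the share of higher genes among all counted genes, from 48.5% to 24.7% and 19.1% at day 3 over day 0, and from 53.3% to 77.8% and 80.2% at day 5 over day 3. The cause of these moves was not tested. Counting error limits TRIM13, RNF139 and RNF103 most. No paired analysis was possible because each group has 1 library.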
